A study of Mus musculus with 9 samples.

Results

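The mitochondrial ribosome is built from RNAs that mitochondrial DNA encodes and from proteins that nuclear genes encode, and most of those genes carry names that start with Mrpl, for the large subunit, or Mrps, for the small subunit. The transcript levels of 78 such genes were analysed, of 41710 gene names in the table of reads. They were chosen by name only, as names that start with Mrpl or Mrps followed by a digit, without pseudogenes, and the reads of their 343 transcripts were summed by gene. Of the 78 genes, 49 are named Mrpl and 29 are named Mrps. By the place of the protein, 51 belong to the large subunit, among them Mrps18a and Mrps30 in spite of their names, and 26 belong to the small subunit. Mrps36 stands outside, because its product is now known as a component of the oxoglutarate dehydrogenase complex. All 78 genes passed the filter on low reads, and the lowest read count of a member in any library was 330.

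Whole hearts of male mice at 8 months of age were sequenced in 3 groups of 3 libraries. Tg-RKIP mice carry a transgene for RKIP (gene Pebp1) that the alpha-MHC promoter drives in heart muscle cells, Tg-GRK2 mice carry a GRK2 transgene whose promoter is not given in the sources used here, and the controls are non-transgenic FVB mice. All 3 groups share the FVB/N strain background. Libraries held 25458108 to 33447654 reads. Pebp1 read counts were 252196 to 321666 in Tg-RKIP and 7140 to 8446 in FVB, which is a log2 fold change of 4.81. Grk2 in the libraries labelled Tg-GRK2 differed from FVB by a log2 fold change of 0.054 (adjusted p = 0.354, edgeR's quasi-likelihood test), so the targeted gene does not set these libraries apart, and they are called by their label here. Libraries of 1 group were close to each other at the median gene. Over genes above a minimum of reads, their median squared pairwise difference was 1.25 to 1.53 times that expected from read sampling. The p-values thus measure the spread between these libraries, which may be technical.

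Mitochondrial ribosomes translate the few messenger RNAs that mitochondrial DNA encodes, all of them for subunits of the respiratory chain and the ATP synthase. Heart muscle cells are packed with mitochondria and depend on this machinery for their energy supply. The small subunit reads the messenger RNA, and the large subunit joins the amino acids and is tethered to the inner membrane. Part of the proteins have relatives in bacterial ribosomes, and the others are found only in mitochondrial ribosomes.

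Promoters of several members are shown because the genes lie scattered over the genome but moved largely in 1 direction. A promoter sequence was held for 69 of the 78 genes (RefSeq, build GRCm38.p6, 250 bases before to 50 after the start of transcription). The last 120 bases before the start are given 5′ to 3′ for Mrpl3 at chr9:105053148-105053267 (+ strand), Mrps22 at chr9:98601680-98601799 (- strand) and Mrps9 at chr1:42851113-42851232 (+ strand), which were among the genes with the largest falls, and for Mrps6 at chr16:92058216-92058335 (+ strand), which had the largest rise. Capitals mark the letters CCGGAAGT, a core that GABPA and other ETS factors are known to bind.
Mrpl3: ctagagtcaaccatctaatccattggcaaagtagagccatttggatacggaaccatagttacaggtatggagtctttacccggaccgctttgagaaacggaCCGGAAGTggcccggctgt
Mrps22: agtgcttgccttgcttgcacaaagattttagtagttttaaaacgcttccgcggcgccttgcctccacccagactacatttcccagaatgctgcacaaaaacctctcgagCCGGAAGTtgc
Mrps9: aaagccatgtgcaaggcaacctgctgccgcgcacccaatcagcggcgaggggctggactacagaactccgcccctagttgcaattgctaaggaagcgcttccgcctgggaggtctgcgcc
Mrps6: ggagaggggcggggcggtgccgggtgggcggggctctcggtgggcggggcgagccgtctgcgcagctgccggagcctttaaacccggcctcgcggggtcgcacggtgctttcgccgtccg
The marked letters began 19 bases before the start in Mrpl3 and 11 bases before it in Mrps22. In the wider window they also stood in Mrpl33 and Mrpl52, which rose. They were absent there from Mrpl20, which rose, and from Mrpl42, Mrpl1, Mrpl45 and Mrpl50, which fell. The letters thus stood in genes that fell and in genes that rose. The stretch from Mrps6 had a GC content of 77.5%, against 50.0% in Mrpl3 and in Mrps22 and 62.5% in Mrps9.

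Over the window of 300 bases, read on both strands, CCGGAAGT stood in 12 of the 69 promoters (17.4%), against 8.18% of the promoters of genes tested and 4.31% of all 27025 genes with a promoter. The letters GCGCATGCG, for NRF1, a regulator of nuclear genes for mitochondria, stood in 7 (10.1%), against 3.65% and 1.95%. The letters AAGATGGCG, for YY1, stood in 8 (11.6%), against 3.16% and 1.64%. GCGCATGCG can share up to 3 letters with AAGATGGCG and 1 with CCGGAAGT where they meet, on either strand, and the last 2 motifs cannot overlap each other. In Tg-RKIP against FVB, the median log2 fold change of members with and without each motif was −0.30 and −0.34 for CCGGAAGT, −0.32 and −0.34 for GCGCATGCG, and −0.50 and −0.32 for AAGATGGCG. The medians lay below 0 with and without each motif, and no test was made between them.

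In FVB hearts the members spanned a 21.6-fold range of levels per length. TPM, a share of transcripts that is corrected for their length, had a median of 55.9 over the 78 genes. Mrpl42, a large-subunit protein found only in mitochondrial ribosomes, had the highest level, at 354 ± 12.3 TPM (SD, n = 3). Mrpl30 followed at 270 ± 9.35 TPM, then Mrps21 at 209 ± 2.56 TPM, Mrps23 at 175 ± 4.68 TPM and Mrpl33 at 163 ± 1.63 TPM (SD, n = 3 each). These neighbours in the order were each apart by more than their SDs, and the 5 genes held 21.2% of the summed level. At the low end, Mrps30 stood at 16.4 ± 0.460 TPM and Mrpl19 at 16.8 ± 0.780 TPM, which lay within their spread. In Tg-RKIP the same 5 genes stood at the top in another order, led by Mrps21 at 276 ± 4.89 TPM.

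Most members were lower in Tg-RKIP hearts than in FVB hearts. Of the 78 genes, 67 fell and 4 rose at an adjusted p under 0.05, and 7 passed in neither direction (edgeR's quasi-likelihood test over 15504 genes). Among all genes tested, 37.1% fell and 36.8% rose in this comparison. The log2 fold change lay below 0 in 72 members, against 49.4% of all genes tested, and the median was −0.35 for the members and 0.0085 for all genes tested. The 3 Tg-RKIP libraries did not overlap the 3 FVB libraries in 72 of the 78 genes, against 75.7% of all genes tested. A single gene taken alone in 3 against 3 libraries cannot go below p = 0.1 in an exact two-sided permutation test. In these whole hearts, fewer cells of a type and less RNA per cell cannot be told apart.

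**Figure D1:**
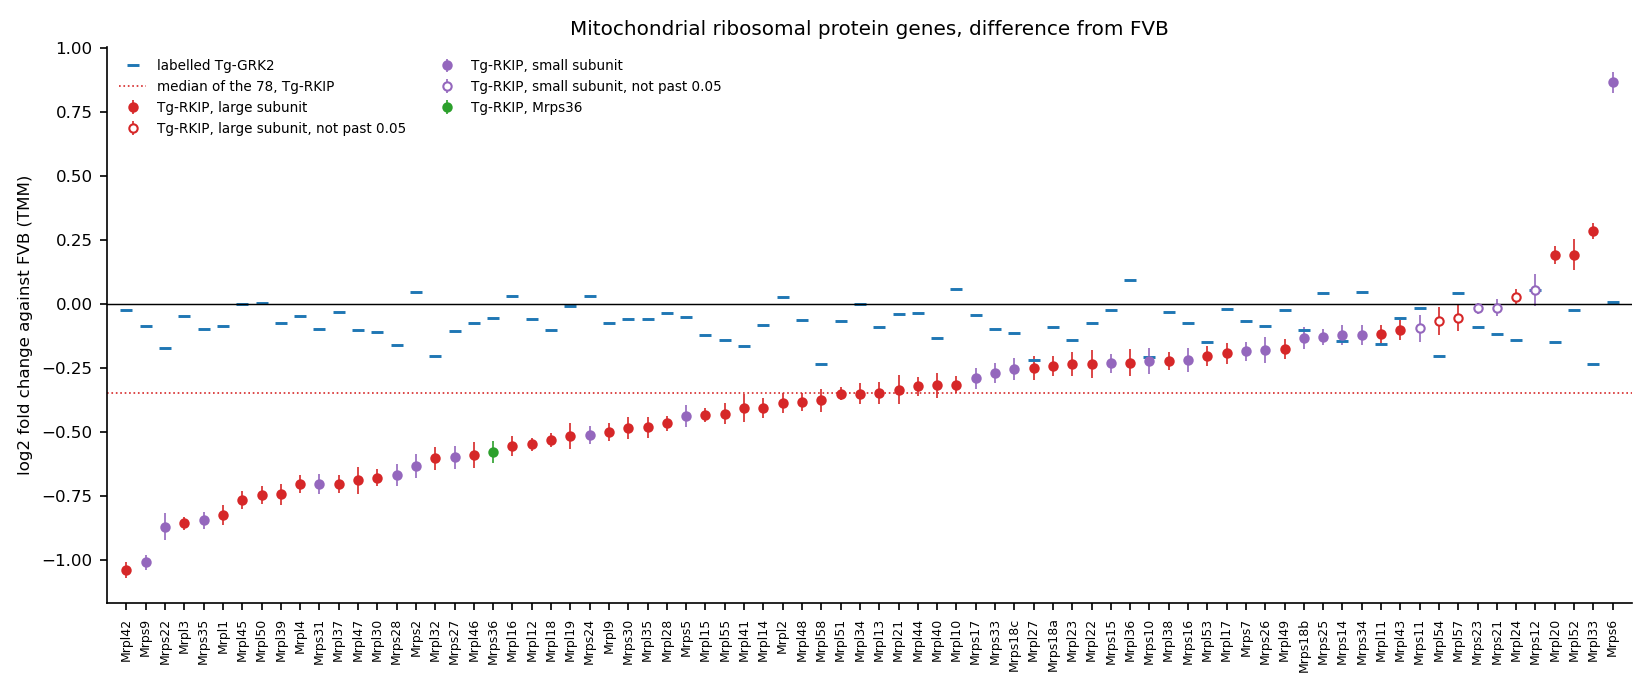
Log2 fold change against FVB (vertical axis, TMM scaling) of each of the 78 genes, ordered by the value in Tg-RKIP (filled points past an adjusted p of 0.05, open points not, bars ± SE), with the libraries labelled Tg-GRK2 as blue dashes. Red marks the large subunit, purple the small subunit and green Mrps36. The values run from −1.04 in Mrpl42 to 0.87 in Mrps6, and the median of −0.35 is dotted.

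These values depend on how libraries are scaled. Reads on mitochondrially encoded genes took 11.7% ± 0.156 of a Tg-RKIP library, 23.1% ± 0.158 of an FVB library and 22.6% ± 0.299 of a library labelled Tg-GRK2 (SD, n = 3 each). The TMM scaling used for the counts above aligns the bulk of genes, while library size and TPM fix the total, mitochondrially encoded genes included. By library size alone, 33 members were called higher and 29 lower in Tg-RKIP, against 62.6% and 17.1% of all genes tested, and the median of all genes moved to 0.38. On log2(TPM + 0.1) with limma, 40 members were called higher and 25 lower, against 66.3% and 14.6%. By library size without mitochondrially encoded genes, 9 were higher and 46 lower, against 49.2% and 26.6%. Relative to the median of all genes, the median of the members was lower by a log2 value between −0.36 and −0.29 in each of 13 fits, and 69 to 72 of the 78 genes lay below that median. Changes below are TMM-scaled and thus relative to the bulk of genes, and the direction of the family on the scale of all reads is not settled by them.

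**Figure D2:**
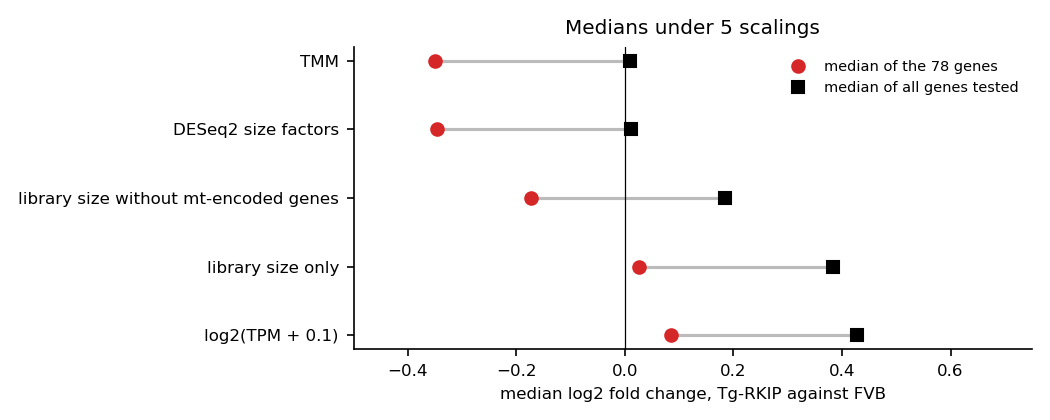
Median log2 fold change of Tg-RKIP against FVB (horizontal axis) of the 78 genes (red circles) and of all genes tested (black squares) under 5 scalings. The members' median passes from −0.35 to 0.086 while it stays to the left of the median of all genes in every row.

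Summed over the 78 genes, the family took 0.346%, 0.344% and 0.350% of a Tg-RKIP library and 0.344%, 0.352% and 0.352% of an FVB library. The groups overlapped. Counting error was small, since the widest 95% Wilson interval of such a share reached 0.0023 percentage points to either side. As a share of the reads that did not fall on mitochondrially encoded genes, the family stood at 0.393% ± 0.00293 in Tg-RKIP and 0.454% ± 0.00522 in FVB (SD, n = 3 each), with no overlap. The libraries labelled Tg-GRK2 stood between them at 0.434% ± 0.00483. Summed TMM-normalised reads were 84530 ± 808 in Tg-RKIP and 110443 ± 1562 in FVB, whereas summed TPM were higher in Tg-RKIP, at 5856 ± 44.9 against 5529 ± 65.6.

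**Figure D3:**
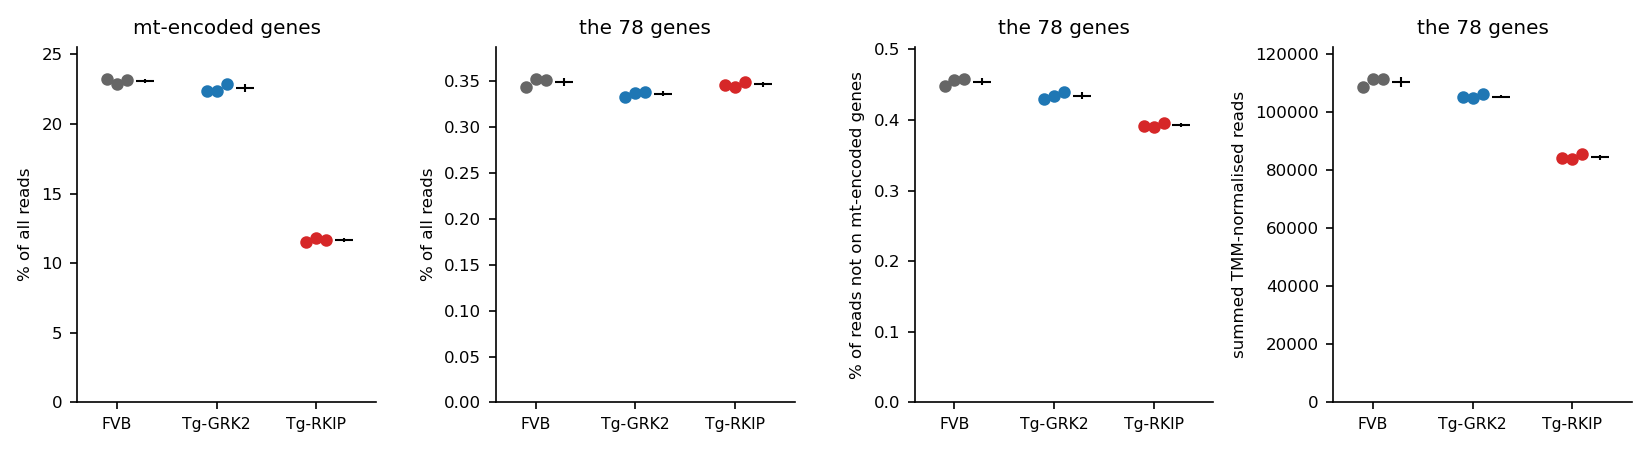
Percentage of all reads on mitochondrially encoded genes, and the summed level of the 78 genes as a percentage of all reads, as a percentage of reads not on mitochondrially encoded genes and as TMM-normalised reads, by group. Points are libraries, and the black mark to their right is the mean ± SD (n = 3). Tg-RKIP overlaps FVB in the second panel only.

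Among the proteins of the large subunit, 45 of 51 genes fell and 3 rose, against 37.1% and 36.8% of all genes tested. Their median log2 fold change was −0.38. Mrpl42 read counts, normalised by TMM, were 4704, 5018 and 5040 in FVB, 2368, 2320 and 2505 in Tg-RKIP, and 4815, 4783 and 4920 under the Tg-GRK2 label. Every Tg-RKIP library lay far below every other library. Mrpl42 (chr10:95316667-95337802, GRCm39) fell by 1.04 on the log2 scale (SE 0.030, adjusted p = 3.77e-18, edgeR). Mrpl3, which reaches towards the catalytic centre of the ribosome, had 2990, 2908 and 2927 normalised reads in FVB and 1646, 1627 and 1593 in Tg-RKIP. The groups did not overlap, and Mrpl3 (chr9:104930438-104957087) fell by 0.86 (SE 0.026).

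Mrpl1, a protein of the stalk next to the site where spent transfer RNA leaves, fell by 0.83 (SE 0.038), from 1327 to 1381 normalised reads in FVB to 751 to 788 in Tg-RKIP. Mrpl45, which lies at the mouth of the exit tunnel and binds the inner membrane, fell by 0.77 (SE 0.036). Mrpl50, found only in mitochondrial ribosomes, fell by 0.75 (SE 0.035). Mrpl12, the protein of the stalk that recruits translation factors, was lower in each Tg-RKIP library, at 2669, 2722 and 2684 normalised reads against 3959, 3833 and 4023 in FVB, and fell by 0.55 (SE 0.025). Mrpl58, a peptidyl-tRNA hydrolase that became part of the large subunit, fell by 0.38 (SE 0.046), and Mrps30, a large-subunit protein with the lowest level per length in FVB, fell by 0.48 (SE 0.042).

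**Figure D4:**
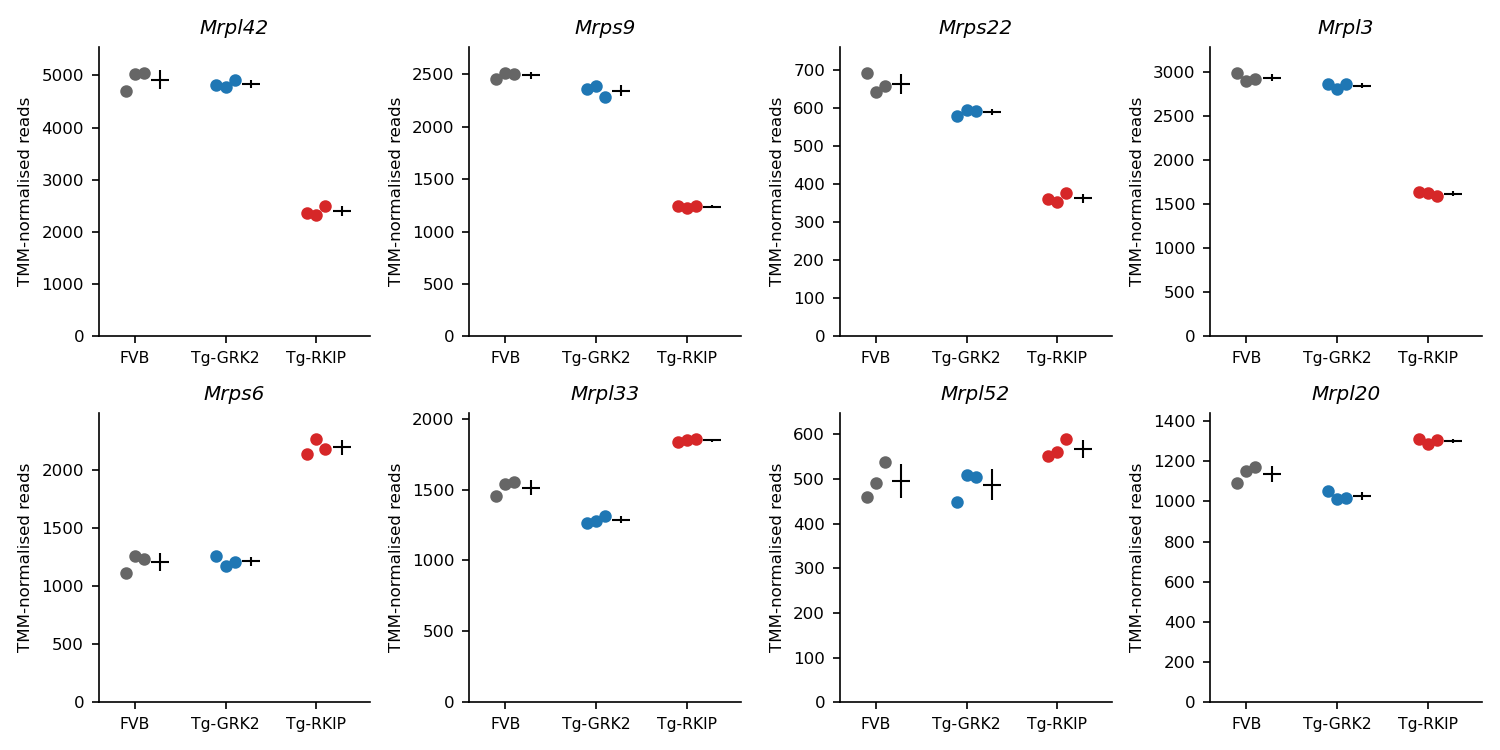
TMM-normalised reads (vertical axes start at 0) of the 4 genes that fell furthest in Tg-RKIP (top row) and the 4 that rose (bottom row), by group. Points are libraries, and the black mark is the mean ± SD (n = 3). Mrpl42 passes from 4704 to 5040 in FVB to 2320 to 2505 in Tg-RKIP, and Mrps6 from 1116 to 1260 to 2141 to 2264.

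Among the proteins of the small subunit, 21 of 26 genes fell and 1 rose, against 37.1% and 36.8% of all genes tested. Their median log2 fold change was −0.23. Mrps9, a relative of a bacterial protein at the head of the small subunit, had 2455, 2511 and 2508 normalised reads in FVB, 1240, 1226 and 1249 in Tg-RKIP, and 2363, 2393 and 2283 under the Tg-GRK2 label. The Tg-RKIP libraries were again apart from all others, and Mrps9 (chr1:42890393-42944843) fell by 1.01 (SE 0.029). Mrps22, found only in mitochondrial ribosomes, fell by 0.87 (SE 0.052), from 692, 642 and 658 normalised reads to 361, 353 and 376. Mrps35, also found only in mitochondrial ribosomes, fell by 0.85 (SE 0.034). Mrps36, outside the ribosome, fell by 0.58 (SE 0.043). The falls of the members not named so far ran from 0.10 in Mrpl43 to 0.74 in Mrpl39.

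The most abundant genes did not share 1 size of change. Mrpl30, the second highest per length in FVB, had 3264, 3376 and 3514 normalised reads in FVB and 2034, 2063 and 2254 in Tg-RKIP, and fell by 0.68 (SE 0.034). Mrps21 stood at 1792, 1835 and 1853 normalised reads in FVB and 1824, 1774 and 1832 in Tg-RKIP, and these ranges overlapped. Mrps23 overlapped as well, at 3702, 3797 and 3693 against 3634, 3711 and 3719. Among the genes with the lowest level per length, Mrpl19 fell by 0.52 (SE 0.050), Mrps2 by 0.63 (SE 0.047) and Mrps27 by 0.60 (SE 0.046).

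The decoding protein Mrps12 did not pass the test, at a log2 fold change of 0.055 (SE 0.061, adjusted p = 0.426, edgeR), and the groups overlapped. The other genes that passed in neither direction were Mrpl24 (0.026), Mrpl54 (−0.067), Mrpl57 (−0.053), Mrps11 (−0.095), Mrps21 (−0.015) and Mrps23 (−0.017), given as log2 fold changes and named after their values were seen. The paralogues Mrps18a, Mrps18b and Mrps18c all fell. Mrps18a, in the large subunit, fell by 0.24 (SE 0.039), Mrps18c, in the small subunit, by 0.25 (SE 0.043) and Mrps18b, in the small subunit, by 0.13 (SE 0.043). By library size alone the 3 log2 fold changes were above 0, at 0.13, 0.12 and 0.24.

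By ancestry, 40 of 47 genes of bacterial type fell and 3 rose, with a median of −0.35. Of 30 genes particular to mitochondria, 26 fell and 1 rose, with a median of −0.34. The shares of all genes tested that fell and rose were 37.1% and 36.8%. The 2 classes stood at nearly the same median. Across the 78 genes the log2 fold change was lower where the most abundant transcript was longer, with Pearson's r of −0.40 and Spearman's rho of −0.43. Genes share libraries and are not independent, so this is a description. The relation over all genes tested was not computed, so this relation is not known to be particular to the members. Among the 26 genes with the shortest transcripts, of 405 to 783 bases, 19 fell and the median was −0.25, while among the 26 with the longest, of 1332 to 6073 bases, 25 fell and the median was −0.51. Level per length in FVB was nearly unrelated to the change, with r of 0.019, or 0.16 without Mrpl30 and Mrpl42. For mean reads in FVB, r was −0.35. In the libraries labelled Tg-GRK2 against FVB the relation to transcript length had the opposite sign, with r of 0.26 and rho of 0.28.

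Mrps6, a relative of a bacterial protein of the small subunit, moved against the family. Its normalised reads were 1116, 1260 and 1237 in FVB, 2141, 2264 and 2182 in Tg-RKIP, and 1257, 1172 and 1210 under the Tg-GRK2 label. The Tg-RKIP libraries were all above the others. Mrps6 (chr16:91855158-91909115) rose by a log2 fold change of 0.87 (SE 0.040, adjusted p = 1.46e-14, edgeR), and by 0.84 when only its most abundant transcript was tested. Slc5a3, the myo-inositol transporter, shares 159 exon bases on the same strand with Mrps6, which is 10.4% of the exon bases of Mrps6. Slc5a3 had 366, 342 and 390 normalised reads in FVB and 1300, 1279 and 1233 in Tg-RKIP, a log2 fold change of 1.80 (SE 0.054). How reads on shared bases were split is not given in the sources used here, so the values of this pair are uncertain.

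The other 3 genes that rose belong to the large subunit. Mrpl33, a small protein with a bacterial relative, had 1456, 1536 and 1550 normalised reads in FVB and 1836, 1847 and 1854 in Tg-RKIP, and rose by 0.29 (SE 0.032). Mrpl20, whose bacterial relative joins early in assembly, rose by 0.19 (SE 0.035), but its most abundant transcript gave −0.14. Mrpl52, found only in mitochondrial ribosomes, rose by 0.19 (SE 0.060), from 460, 490 and 537 to 552, 560 and 588 normalised reads. Without FVB replicate 1 Mrpl52 stood at 0.14 and no longer passed the test.

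Exons of 22 members overlap those of another tested gene, on either strand, and whether the counting used strand is not given in the sources used here. The largest overlaps were those of Mrpl53 with Gm42688 (88.0% of its exon bases), Mrps25 with Nr2c2 (69.8%) and Mrps34 with Mapk8ip3 (63.4%), and values of these members are uncertain. Without the 22 genes, 48 of 56 members fell and 3 rose, with a median of −0.38. A gene on the opposite strand began within 1000 bases in 23 of the 78 members (29.5%), against 12.1% of all genes tested. Of these 23 neighbours, 9 fell and 6 rose, against 37.1% and 36.8% of all genes tested. Their median log2 fold change was −0.088, while the members with and without such a neighbour had medians of −0.32 and −0.38. Mrpl49 fell by 0.18, whereas its neighbour Fau, which encodes a cytosolic ribosomal protein, rose by 0.53. Other pairs fell together, such as Mrps27 by 0.60 and its neighbour Ptcd2 by 0.82.

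The split of reads between transcripts was read as well. Protein-coding transcripts held 79.9% of the reads of the family. Among 75 genes with more than 1 transcript, the share of reads on the most abundant transcript did not overlap between Tg-RKIP and FVB in 18, against 30.2% of the 13336 genes tested with more than 1 transcript. The means were also at least 5 percentage points apart in 9 of them, against 22.8% of these genes. Between the libraries labelled Tg-GRK2 and FVB the share did not overlap in 10 members, against 12.4%, and was also at least 5 points apart in 1, against 7.65%. These counts do not set the members above the background, and the 3 genes that follow are described without a test. In Mrps9 this share was 76.7% ± 8.19 in Tg-RKIP and 90.6% ± 1.75 in FVB (SD, n = 3 each). In Mrps36 it was higher in Tg-RKIP, at 82.2% ± 3.41 against 69.8% ± 5.04. In Mrpl20, whose most abundant transcript is annotated as non-coding, it was 54.9% ± 5.10 against 68.3% ± 2.24.

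On the TMM scale, most genes that build and serve the mitochondrial ribosome were lower in Tg-RKIP as well. Among all genes tested, 37.1% fell. Of 5 ribosomal proteins with other names, 3 fell, namely Ptcd3 by 0.92, Dap3 by 0.55 and Chchd1 by 0.44. Of 24 genes for assembly and ribosomal RNA modification, 19 fell and 1 rose, with a median of −0.43 and the largest falls in the methyltransferase Mettl15 (by 1.02) and the RNA-binding protein Fastkd2 (by 0.96). Of 13 translation factors, 12 fell, with a median of −0.74, led by the initiation factor Mtif2 (by 1.21) and by Taco1, an activator of Cox1 translation (by 1.15). Of 17 mitochondrial aminoacyl-tRNA synthetases, 16 fell, with a median of −0.63. All 13 genes for transcription of mitochondrial DNA and stability of its messenger RNAs fell, with a median of −0.60. Lrpprc, which keeps these messengers stable, fell by 0.99. Summed TPM of the assembly genes were higher in Tg-RKIP, at 404 to 410 against 381 to 382 in FVB. Summed TPM of the translation factors were lower, at 522 to 538 against 621 to 631. The lists thus differ in whether the fall holds on the scale of TPM.

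Genes related to this machinery were read beside it, as RNA levels, and what the mitochondrial ribosome makes was not measured. Of all genes tested, 37.1% fell and 36.8% rose. Mitochondrially encoded genes were taken by names that start with mt-, so they are not messenger RNAs alone. Of 34 such genes tested, 33 fell, with a median of −1.47. Of 85 nuclear genes for respiratory chain subunits, 78 fell and 3 rose, with a median of −0.53. Cytosolic ribosomal protein genes moved the other way, since 68 of 81 rose and 3 fell, with a median of 0.25. Rpl3l, the paralogue of Rpl3 in heart and skeletal muscle, fell by 1.24, while Rpl3 rose by 0.68. Among 11 regulators, 6 fell and 2 rose, with a median of −0.15. The largest changes were those of Ppargc1a, a coactivator of mitochondrial biogenesis, which fell by 1.24, and Myc, which rose by 1.14. Ppargc1b, a relative of Ppargc1a, fell by 0.88.

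**Figure D5:**
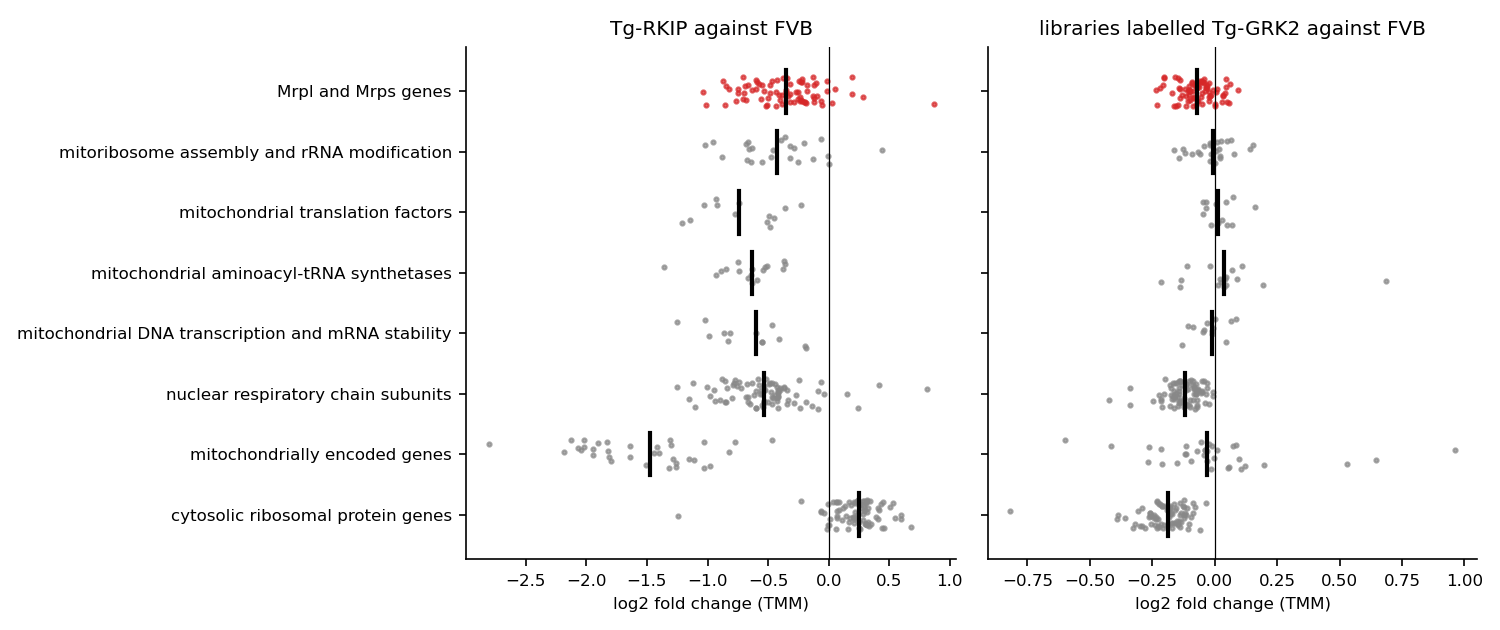
Log2 fold change (horizontal axes, TMM scaling) of single genes in 8 lists, for Tg-RKIP against FVB (left) and for the libraries labelled Tg-GRK2 against FVB (right, with a narrower axis). Points are genes, with random vertical spread, and black bars are medians. On the left the medians run from −1.47 in mitochondrially encoded genes to 0.25 in cytosolic ribosomal protein genes.

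Markers of cell types moved with the same comparison. Of 8 cardiomyocyte markers, 6 fell and 1 rose. Their summed normalised reads were 1034016 to 1047566 in Tg-RKIP, 1679345 to 1691322 in the libraries labelled Tg-GRK2 and 1626603 to 1658511 in FVB. Their summed TPM were 45526 to 46439 in Tg-RKIP, 42942 to 44478 in the libraries labelled Tg-GRK2 and 45177 to 45586 in FVB. On that scale Tg-RKIP and FVB overlapped, so the fall of the sum depends on the scaling. All 8 fibroblast markers, all 6 macrophage markers and all 6 adipocyte markers rose in Tg-RKIP, and the summed fibroblast markers were 128270 to 128738 in Tg-RKIP and 50521 to 51931 in FVB. Endothelial markers were split, with 3 higher and 3 lower of 6. All 4 cartilage markers tested rose in Tg-RKIP, with sums of 12582 to 12862 against 507 to 544 in FVB, and all 5 erythroid markers rose in both transgenic groups. Airway markers were present in both transgenic groups, with sums of 933 to 1020 in Tg-RKIP and 2309 to 2449 in the libraries labelled Tg-GRK2, while Scgb1a1, Scgb3a2, Sftpc and Bpifa1 were at 0 in FVB. The part of these markers in the results for the family was not tested.

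In the libraries labelled Tg-GRK2 the differences from FVB were small. Of the 78 genes, 23 fell and 0 rose by edgeR, against 12.2% of all genes tested in each direction. At an unadjusted p under 0.05 the counts were 34 lower and 0 higher. DESeq2 gave 9 lower and 0 higher, and limma on log2(TPM + 0.1) gave 8 lower and 3 higher. The share of all genes was not computed for these alternatives, so their counts cannot be set against a background. The log2 fold change lay below 0 in 65 members, against 50.6% of all genes tested. The median was −0.073, against −0.0023 for all genes tested, and the groups did not overlap in 41 genes, against 37.1% of all genes tested. No member passed a test against a fold change of 1.2. Leaving out 1 library gave 17 to 23 lower, with 17 without FVB replicate 2 and without Tg-GRK2 replicate 1 or 2.

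Mrpl33, which rose in Tg-RKIP, was lower in the libraries labelled Tg-GRK2, at 1267, 1281 and 1313 normalised reads against 1456, 1536 and 1550 in FVB. It fell by 0.23 (SE 0.034, adjusted p = 2.17e-05, edgeR). Mrpl58 fell by 0.23 (SE 0.046), from 944, 956 and 956 to 837, 836 and 763 normalised reads. Mrpl27, a relative of a bacterial protein near the catalytic centre, fell by 0.22 (SE 0.050). Mrps10, of the small subunit, fell by 0.21 (SE 0.053), but its most abundant transcript gave 0.16. In the large subunit 15 of 51 genes fell, and in the small subunit 8 of 26, against 12.2% of all genes tested. Both comparisons share the FVB libraries.

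The lists around the family were read in the libraries labelled Tg-GRK2 too. Against FVB, 12.2% of all genes tested were called in each direction. The 13 translation factors had a median log2 fold change of 0.014 against FVB, with a range of −0.046 to 0.16, and the 13 genes for transcription and messenger stability had a median of −0.012. Of 24 assembly genes 1 fell, with a median of −0.0067. In Tg-RKIP against these libraries, 12 of 13, 12 of 13 and 18 of 24 genes of the 3 lists were lower past the threshold. The share of all genes tested that were lower in that comparison was 36.6%. Cytosolic ribosomal protein genes were lower, with 76 of 81 below FVB past the threshold and a median of −0.19, and 65 of 85 respiratory chain subunits fell, with a median of −0.12. Mitochondrially encoded genes were split, with 4 higher and 9 lower of 34. Of 17 mitochondrial aminoacyl-tRNA synthetases 1 was higher and 0 were lower, with a median of 0.038. Their summed normalised reads were widely spread under the Tg-GRK2 label, from 18720 to 36470, against 19685 to 21285 in FVB.

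Set directly against each other, Tg-RKIP was lower than the libraries labelled Tg-GRK2 in 58 of the 78 genes and higher in 8, against 36.6% and 37.9% of all genes tested. The groups did not overlap in 65 genes, against 76.4% of all genes tested. The median was −0.29 for the members and 0.021 for all genes tested. By library size alone the counts were 25 lower and 38 higher, against 18.4% and 62.0% of all genes tested. By library size without mitochondrially encoded genes they were 40 lower and 16 higher, against 27.2% and 49.9%, and on log2(TPM + 0.1) with limma 25 lower and 39 higher, against 17.0% and 63.3%. Mrpl42 was lower by a log2 value of −1.02 (SE 0.030) and Mrps9 by −0.92 (SE 0.029), while Mrps6 was higher by 0.86 (SE 0.039) and Mrpl33 by 0.52 (SE 0.032). The other genes that were higher in Tg-RKIP were Mrpl20 (0.34), Mrpl52 (0.22), Mrpl24 (0.17), Mrpl54 (0.14), Mrps21 (0.10) and Mrps23 (0.075).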

How the data were processed

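Total RNA of whole hearts was sequenced in 9 libraries. The authors deposited whole-number read counts per transcript and, per library, TPM values per transcript, on build GRCm39 per the labels. The aligner and the counter are not given in the sources used here. Transcript counts were summed by gene name, genes passing filterByExpr (15504) were scaled by TMM and fitted over all 3 groups with edgeR 4.0.16 (R 4.3.3), glmQLFit and glmQLFTest, with Benjamini-Hochberg adjustment over all genes and a threshold of 0.05. SE is the log2 fold change divided by the root of F. TMM-normalised reads are reads divided by effective library size and multiplied by the mean library size. DESeq2 1.42.0 and limma 3.58.1 on log2(TPM + 0.1) and log2(TPM + 1) were alternatives. The TPM values keep no depth. The edgeR step was tested on data simulated from the FVB means with few genes changed, so that test does not bear on the choice of scaling.

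Named members were those called with no overlap of the groups, up to 8 in each direction for Tg-RKIP (4 rose) and up to 4 for Tg-GRK2, the 5 highest and the 5 lowest TPM in FVB, and a fixed list of 8 (Mrpl12, Mrpl58, Mrps12, Mrps18a, Mrps18b, Mrps18c, Mrps30, Mrps36). Up to 3 genes of each other list were named by size of change. Overlapping and neighbouring genes, Mrpl39, Mrpl43 and members that passed in neither direction were named after their values were seen. Members and lists were chosen with earlier results of these data known. Columns of the table that belong to no sample held annotation only.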

Additional observations from a re-analysis of the deposited data

How the results depend on the processing

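Tg-RKIP against FVB gave 1 higher and 42 lower members against a fold of 1.2 (glmTreat). The counts were 33 and 29 by library size, against 62.6% and 17.1% of all genes tested. They were 9 and 46 by library size without mitochondrially encoded genes, against 49.2% and 26.6%. By limma on log2(TPM + 0.1) and on log2(TPM + 1) they were 40 and 25, against 66.3% and 14.6% with the former. By most abundant transcript 1 was higher, and the log2 fold change lay below 0 in 71 of the 78 genes. The libraries labelled Tg-GRK2 against FVB gave 9 lower by DESeq2, 0 lower against a fold of 1.2, 3 higher and 8 lower by limma with either pseudocount, and 7 lower by most abundant transcript. No share of all genes was computed for these counts. Nor was it computed for any count against a fold of 1.2, by most abundant transcript, on log2(TPM + 1) or with a library left out. Tg-RKIP against Tg-GRK2 gave 3 higher and 36 lower against a fold of 1.2. By library size the counts were 38 and 25, against 62.0% and 18.4% of all genes tested. By library size without mitochondrially encoded genes they were 16 and 40, against 49.9% and 27.2%. By limma with either pseudocount they were 39 and 25, against 63.3% and 17.0% on log2(TPM + 0.1). By most abundant transcript 5 were higher, and the log2 fold change lay below 0 in 65 of the 78 genes. Leaving out each library gave 3 to 4 higher and 65 to 67 lower in Tg-RKIP, 0 higher and 17 to 23 lower in Tg-GRK2, and 6 to 8 higher and 56 to 60 lower between them. The summed family's share of all reads changed relative to its level in FVB by −0.744% in Tg-RKIP and −3.73% in Tg-GRK2. The relative change of its summed TPM was 5.92% and −1.72%, and that of its share of reads not on mitochondrially encoded genes was −13.6% in Tg-RKIP. Without the 22 members that share exon bases, an alternative chosen after seeing the data, 48 fell and 3 rose in Tg-RKIP.

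Of the values of single named members, 757 kept direction and side of the threshold, 28 lost the call, 4 gained it and 25 changed sign. Single members changed sign in Tg-RKIP against FVB, the values being log2 fold changes. By library size they were Mrps18a 0.13, Mrps18b 0.24, Mrps18c 0.12, Mrps21 0.36 and Mrps23 0.36. By limma on log2(TPM + 0.1) and log2(TPM + 1) they were Mrps18a 0.18 and 0.18, Mrps18b 0.29 and 0.28, Mrps18c 0.18 and 0.18, Mrps21 0.40 and 0.40, and Mrps23 0.34 and 0.34. By library size without mitochondrially encoded genes they were Mrps18b 0.043, Mrps21 0.16 and Mrps23 0.16. At 10 CPM or more in 3 libraries they were Mrps21 0.052 and Mrps23 0.049. By most abundant transcript they were Mrpl20 −0.14, Mrps12 −0.064 and Mrps23 0.033, and Mrps10 in Tg-GRK2 0.16. Over the libraries left out, Mrps21 ranged from −0.033 to 0.00083, the latter without Tg-RKIP replicate 2. The shift of the median of all genes stands beside the scalings above, and for the other changes the cause was not tested.

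Replicate numbers did not pair the libraries, as correlations of same-numbered deviations were −0.041 to 0.042. With the replicate number as a block, 4 rose and 67 fell in Tg-RKIP, 0 and 23 in Tg-GRK2, and 8 and 58 between them. Depth did not limit the members, since the lowest count was 330 reads.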
